A study of Mus musculus with 24 samples.

Results

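The effect of the post-weaning diet on the liver was examined among the transcripts that the arrays detected well. A probe was taken as bright where the scanner software marked its sample signal as well above background on at least 6 of the 12 liver arrays, which held for 15209 of 41174 probes and for 11419 of 27962 gene names. The members were thus chosen by their brightness in the same 12 livers, without regard to diet. The 12 female C57BL/6 mice were 12 weeks old. Their dams had eaten high-fat chow poor in both selenium and folate before mating and through gestation and lactation, so both groups share that early exposure. After weaning, the 6 HF-low-low mice stayed on that diet, and the 6 HF-low-suf mice received high-fat chow in which selenium and folate were adequate. Each array compared the RNA of 1 mouse, labelled with Cy3, with a pool of colon and liver RNA of all mice, labelled with Cy5. Values are log2 ratios of the liver to that pool, and differences are HF-low-suf minus HF-low-low, so that a positive difference means a higher mRNA abundance in HF-low-suf mice. This sign follows the dye labels and is opposite to that of the study's own tables.

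The 12 livers lay on 6 slides, 1 liver of each diet per slide, and the replicate number is also the slide number. Slides 1 to 3 were scanned on one day and slides 4 to 6 on another. In Cy3, the median signal over background of the 12 arrays ran from 3.77 to 5.78. On HF-low-suf replicate 4 the Cy5 signal was 12.7 times the background against 5.43 to 7.62 on the other HF-low-suf arrays, 8.75% of its spots were marked as outliers, and it accounted for 272 of the 351 bright probes with a value missing on at least 1 liver array. With 6 arrays per diet, precision is limited by their number. Of the hepatocyte markers, 9 were found on the array by name, and all 9 were bright on all 12 arrays. No bright probe carried the name Alb, which says nothing of the signal of albumin. Whole liver was measured, so fewer cells of a type and less RNA per cell cannot be told apart.

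The liver takes up selenium and folate from the diet and processes both. Selenium is built into selenoproteins, among them glutathione peroxidases, thioredoxin reductases and selenoprotein P, the carrier that liver secretes to supply other organs. Folate carries one-carbon units that are used to make nucleotides and to regenerate methionine, from which S-adenosylmethionine, the methyl donor for DNA and histones, is formed. The same hepatocytes make bile acids, lipoproteins, urea and plasma proteins, so that a bright liver transcript often belongs to one of these pathways.

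Few bright transcripts differed between the diets. With limma on all 41174 probes, 2 bright probes passed the study's threshold (unadjusted P below 0.01, fold change above 1.5), both lower in HF-low-suf mice, and none was higher. Over all probes 48 passed, 0.117% of those tested, of which 8 were lower, 0.0194%. No bright probe passed the Benjamini-Hochberg adjustment in limma, where the lowest adjusted P over all probes was 0.999986. An unadjusted P below 0.05 was reached by 52 bright probes, 0.342%, of which 28 were higher in HF-low-suf mice. Over all probes it was reached by 877, 2.13%, and by 483 that were higher, 1.17%. Bright probes and all probes both fell short of the share that a threshold of 0.05 gives on average where nothing differs. These counts depended on the arrays. With limma's array weights, which rise the closer an array lies to its diet's mean, 72 bright probes were called and 1348 lay below 0.05. When 1 liver was left out, 0 (without HF-low-low replicate 1 or HF-low-suf replicate 2) to 8 (without HF-low-low replicate 6) were called. Below 0.05 lay 16 (without HF-low-suf replicate 2) to 202 (without HF-low-low replicate 3). The median difference over the bright probes was 0.01 on the log2 scale, and 52.4% of them were higher in HF-low-suf mice.

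How large an effect could have gone unseen was read from the 95% confidence interval of each difference, whose outer end is called the bound here and is given as a fold change. The median bound of the bright probes was 1.38-fold, and for 14611 of them, 96.1%, it lay below 2-fold. The whole interval lay within 1.5-fold in either direction for 72.3% of bright probes and for 55.6% of the 25965 others, and with median centring of the arrays in place of loess for 29.5% of bright probes. The spread between livers of one diet was the smaller among bright probes, with a median SD of 0.29 on the log2 scale against 0.34. The widest bound of any bright probe was 15.9-fold, for Cfd, the adipocyte serine protease adipsin, which entered the bright set through 5 HF-low-suf arrays and 1 HF-low-low array. Its log2 ratio was 3.68 in HF-low-suf replicate 1 and between -4.44 and -0.72 in the other 11 livers.

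**Figure D1:**
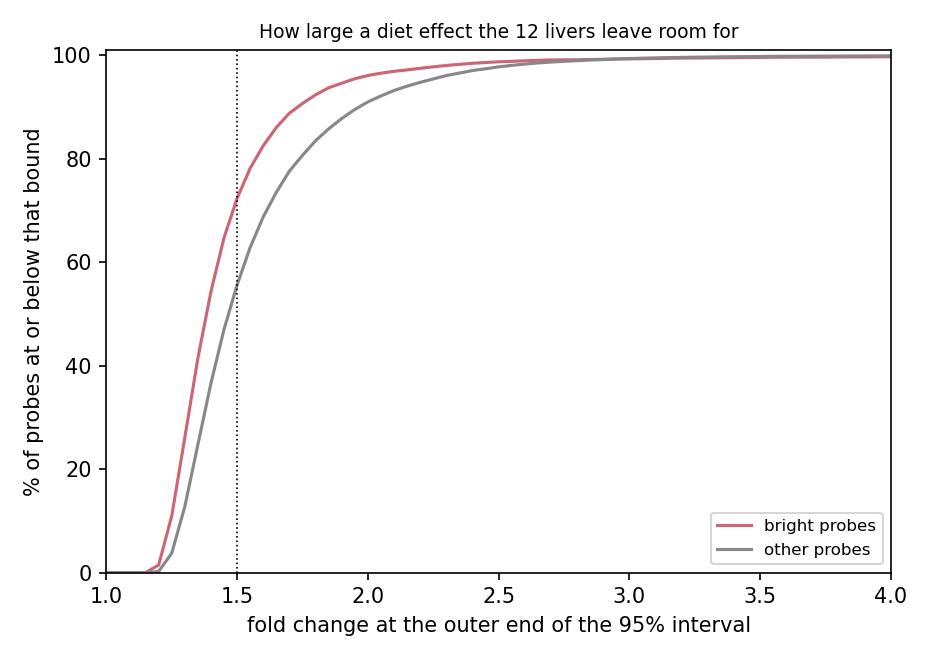
Share of probes (y axis, %) whose 95% interval for the diet difference ends at or below a given fold change (x axis), for 15209 bright probes and 25965 others, 6 livers per diet. At 1.5-fold, the dotted line, the bright probes had reached 72.3% and the others 55.6%. The curves are from loess-normalized values, and with median centring the bright share was 29.5%.

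The sequences below identify 5 of the probes described next, as the first 30 of their 60 bases, 5′ to 3′, with the position of the whole probe in build mm7, all as the array files give them. They are shown as the probes behind the called genes and a few of the uncalled ones described with them. Whether a probe lies in a coding exon or an untranslated region was not analysed here.
Errfi1, chr4:149857959-149858018, plus strand: ctattcagtatttcctggggattgtttgct
Epha2, chr4:140707665-140707724, plus strand: agcccctttggacaaatgtcgctgtcagtg
Mtss1, chr15:59119758-59119817, minus strand: atctttaagacatttggtttcaggttgttt
Tsc22d3, chrX:135259067-135259126, minus strand: gtgctgactacatagaatggggttgagaga
Clec4g, chr8:3678594-3678653, minus strand: tgtcagtctcaaaatcactgctctaaaccc

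The called transcripts were Errfi1 and Epha2, which both act at receptor tyrosine kinases. Errfi1 encodes a feedback inhibitor that binds the EGF receptor. Its log2 ratio in the HF-low-low livers ran from 0.06 through a median of 0.44 to 1.34, and in the HF-low-suf livers from -0.78 through -0.04 to 0.15. The groups overlapped by HF-low-low replicate 3 alone, which lay below 2 of the HF-low-suf livers. The difference was -0.78 ± 0.23 (SE, n = 6 per diet), with a 95% interval from -1.26 to -0.29 and an exact permutation P of 0.00649 (two-sided), and HF-low-suf was lower on 6 of 6 slides. It was -1.23 on the first scan day and -0.32 on the second. Leaving out 1 liver at a time gave -0.89 to -0.63, and the call was lost without HF-low-low replicate 1 (-0.69) or HF-low-suf replicate 2 (-0.65). It was also lost with the slide as a block (-0.78) and with median centring of the arrays (-0.73).

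Epha2 encodes a receptor for ephrin-A ligands. Its log2 ratio ran from 0.81 through 1.23 to 1.66 in the HF-low-low livers and from -0.11 through 0.54 to 1.12 in the HF-low-suf livers. HF-low-suf replicates 1 and 5 lay within the HF-low-low range and the other 4 below it. The difference was -0.70 ± 0.23 (SE, n = 6 per diet), with an interval from -1.18 to -0.22 and an exact permutation P of 0.0216, lower on 6 of 6 slides. It was -0.87 and -0.53 on the 2 scan days and -0.82 to -0.58 when 1 liver was left out, and it was no longer called without any one of HF-low-low replicates 1, 2, 4 and 5 or HF-low-suf replicates 2, 3 and 4. It was also lost with scan day as a block (-0.70), median centring (-0.60), the processed signals (-0.74), all 24 arrays in one fit (-0.70) and array weights (-0.54).

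Of 33 bright genes of EGF receptor and Eph signalling, these were the only members called, against 2 of 15209 bright probes and 0.117% of all probes, and the only ones with an unadjusted P below 0.05. Of the others, 19 had the higher mRNA abundance in HF-low-suf mice and 12 in HF-low-low mice, and the list's median was 0.02 (-0.03 to 0.12 over scalings of the arrays) against 0.01 over all bright probes. The receptor Egfr differed by -0.07, Erbb3 by -0.04 and Epha1 by -0.14. The ligands Efna1 and Efna5 differed by -0.01 and -0.06, Efnb2 by 0.21 and Egf by 0.19. Downstream, the phosphatase Dusp6 differed by -0.09 and the kinase Mapk3 by 0.09. The value of Efnb2 rested on 1 liver and was -0.01 without HF-low-suf replicate 4.

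The remaining 50 bright probes with an unadjusted P below 0.05 were not called, and those named here were chosen after their values were seen, so their P values restate that choice. Mtss1, an actin-binding membrane scaffold, had ratios from -0.14 through 0.11 to 0.16 in HF-low-low livers and from -1.08 through -0.34 to 0.00 in HF-low-suf livers. The difference was -0.55 ± 0.19 (SE), exact permutation P = 0.00866, lower on 6 of 6 slides, and HF-low-suf replicates 1 and 2, at -1.08 and -1.04, lay far below the rest, while replicate 3 lay within the HF-low-low range. Its other bright probes gave -0.12 and -0.18. Tsc22d3, the glucocorticoid-induced leucine zipper, had ratios from 0.09 through 0.33 to 1.23 and from -0.77 through 0.04 to 0.13. Its difference was -0.56 ± 0.21 (SE), exact permutation P = 0.00433, lower on 6 of 6 slides, with -0.95 on the first scan day and -0.18 on the second. Of its 3 bright probes 2 were among the 52, the other of them at -0.54, and the remaining probe gave -0.36.

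Rora, a nuclear receptor of the circadian clock, had ratios from 0.69 through 0.90 to 1.34 in HF-low-low livers and from 0.29 through 0.55 to 1.05 in HF-low-suf livers. The difference was -0.42 ± 0.17 (SE), exact permutation P = 0.0346, and it was alike on both scan days, at -0.45 and -0.39. A brighter probe of Rora gave -0.37. Iqgap2, a scaffold protein abundant in liver, differed by -0.48, -0.46 and -0.32 on its 3 probes. Gpt2, the mitochondrial alanine aminotransferase, differed by -0.29 ± 0.13 (SE), exact permutation P = 0.0173, with ratios of 1.62 to 2.13 against 1.26 to 1.76.

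Other probes with a P below 0.05 were higher in HF-low-suf mice. Clec4g, a lectin of the liver sinusoidal endothelium, had ratios from 0.96 through 2.05 to 2.31 in HF-low-low livers and from 2.14 through 2.40 to 2.79 in HF-low-suf livers, a difference of 0.53 ± 0.21 (SE), exact permutation P = 0.013, higher on 6 of 6 slides. The lowest liver was HF-low-low replicate 1, and without it the difference was 0.34. Cldn5, an endothelial tight junction protein, had ratios from -0.45 through 0.35 to 0.56 and from 0.29 through 0.71 to 1.02, a difference of 0.46 ± 0.18 (SE), exact permutation P = 0.0195. HF-low-low replicate 1 was again the lowest, and without it the difference was 0.32.

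Thbd, the thrombin receptor thrombomodulin, differed by 0.65 ± 0.27 (SE), and Emcn, an endothelial sialomucin, by 0.48 ± 0.21 (SE). Icam2, an endothelial adhesion molecule, differed by 0.41 ± 0.17 (SE), and Ramp2, the partner of the adrenomedullin receptor, by 0.42 ± 0.19 (SE). Their ranges in the diets overlapped, and Ramp2 was higher in HF-low-suf mice on 6 of 6 slides. These genes were picked from the 52 probes and were not tested as a group. A list of endothelial and stellate cell markers did not move as one. Of its 14 bright members 10 were higher, with a median of 0.08 against 0.01 over all bright probes, and the list's median became 0.01 when HF-low-low replicate 1 was left out and 0.30 when HF-low-low replicate 2 was. With array weights it was -0.03. By liver, the median over the endothelial and stellate markers ran from -0.46 to 0.33 in the HF-low-low livers and from -0.20 to 0.27 in the HF-low-suf livers. The lowest value was that of HF-low-low replicate 1. The endothelial Cdh5, Tie1 and Stab2 differed by 0.10, 0.03 and 0.08, Kdr by 0.40 and the list's lowest member, Reln, by -0.34, and the part of endothelial RNA content in these differences was not tested.

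**Figure D2:**
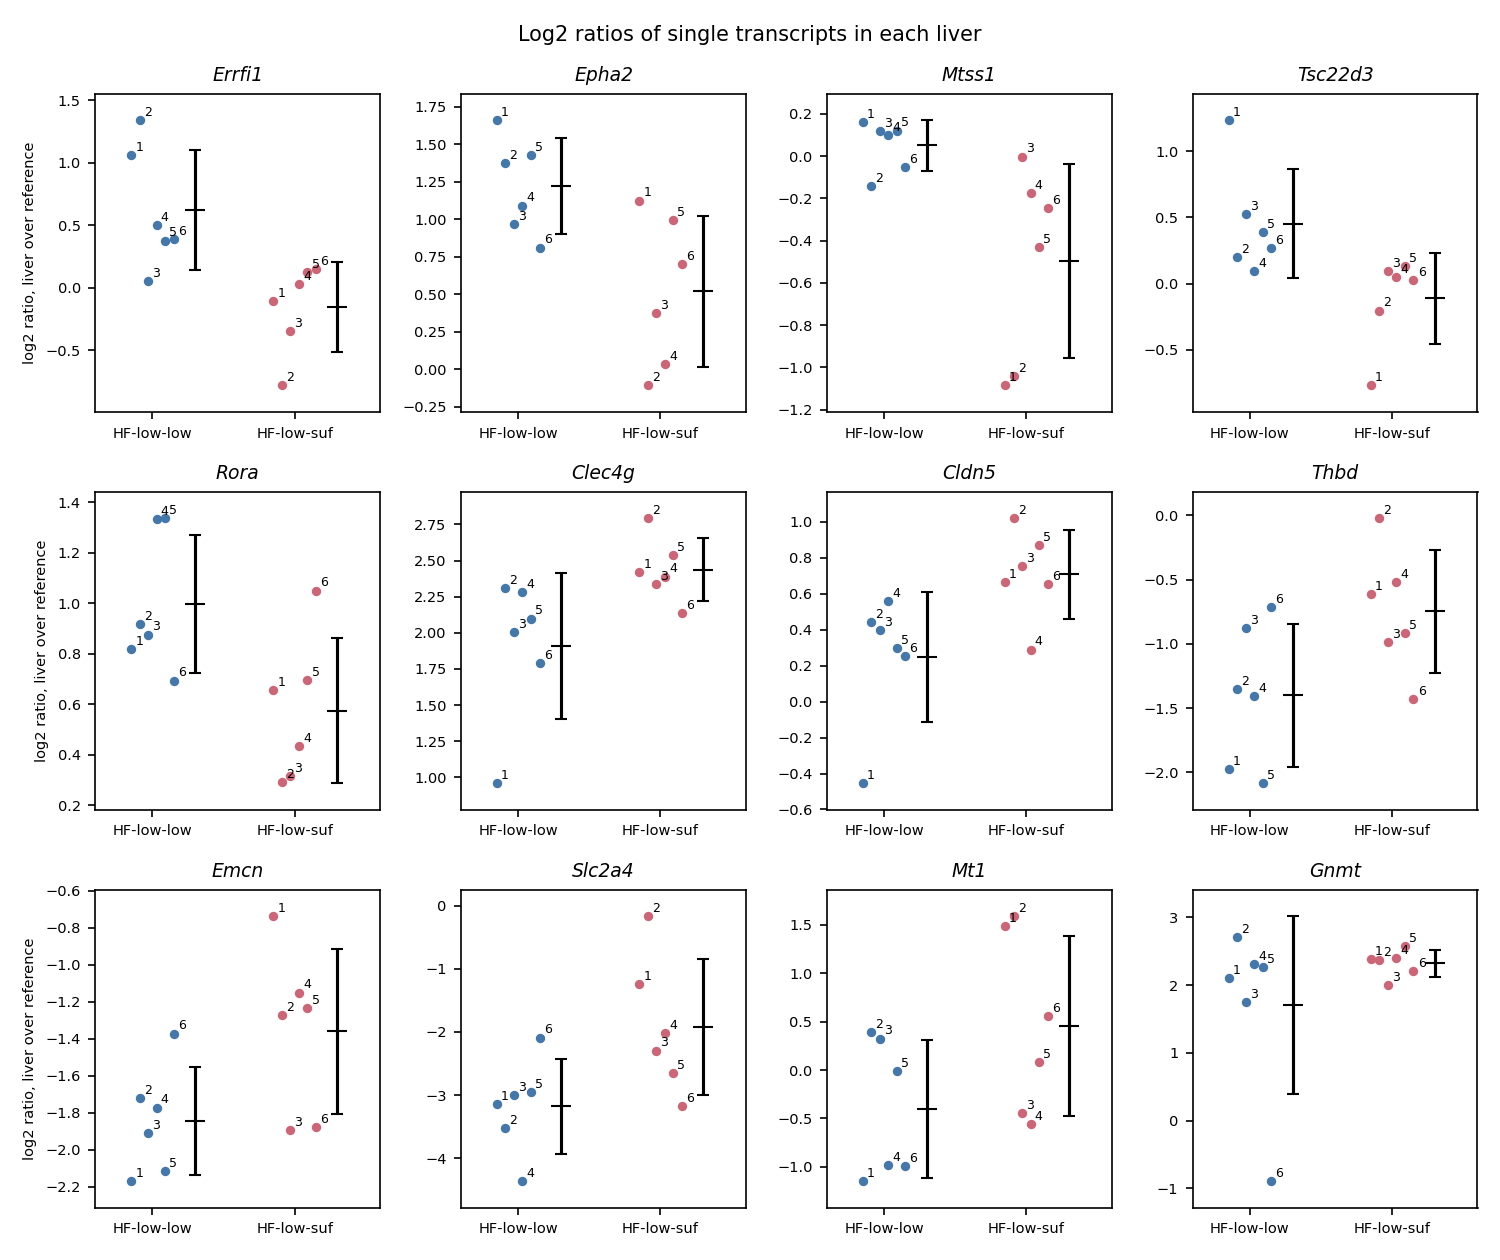
Log2 ratio of liver to the reference pool (y axis) for 12 bright transcripts, 1 point per liver with its replicate number, beside the mean and SD of the 6 livers of each diet. Errfi1 and Epha2 were the called probes. HF-low-low replicate 1 was lowest for Clec4g and Cldn5, and HF-low-low replicate 6 stood at -0.90 for Gnmt.

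In 1 bright probe all HF-low-suf livers lay on one side of all HF-low-low livers, and over all probes this held for 7, 0.017% of those tested. It measured Idh3g, a regulatory subunit of the mitochondrial isocitrate dehydrogenase of the TCA cycle. The HF-low-low livers ran from -0.96 to -0.78 and the HF-low-suf livers from -0.78 to -0.42, so that the nearest livers of the diets met at the second decimal. The difference was small, 0.23 ± 0.11 (SE), with a 95% interval from -0.01 to 0.46, and it was 0.38 on the first scan day and 0.07 on the second.

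The bright transcripts were then described by 48 lists of pathways, families and cell type markers. The lists held 1511 genes, of which 1470 were on the array and 1279 were bright. Of these 1279 genes 8 had an unadjusted P below 0.05, against 52 of the 15209 bright probes, 0.342%, and 877 of the 41174 probes, 2.13%. They were Errfi1, Epha2 and 6 more. Slc2a4, the insulin-responsive glucose transporter, differed by 1.26, Hspa1a, an inducible heat shock protein, by 0.79 on one probe and 0.12 on another, Clec4g by 0.53, the B cell marker Ms4a1 by 0.52, Ndufa11, an accessory subunit of complex I, by 0.42 on one probe and 0.34 on another, and Gpt2 by -0.29. Ms4a1 entered the bright set through 4 HF-low-suf arrays and 2 HF-low-low arrays, so mainly through the diet in which it was higher. The median of 45 of the 48 lists lay within 0.2 of 0, and the exceptions were the marker lists of skeletal muscle, adipose tissue, and blood. In each of the 48 lists the medians of the livers overlapped between the diets. In 10 lists every bright member had a bound below 2-fold.

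**Figure D3:**
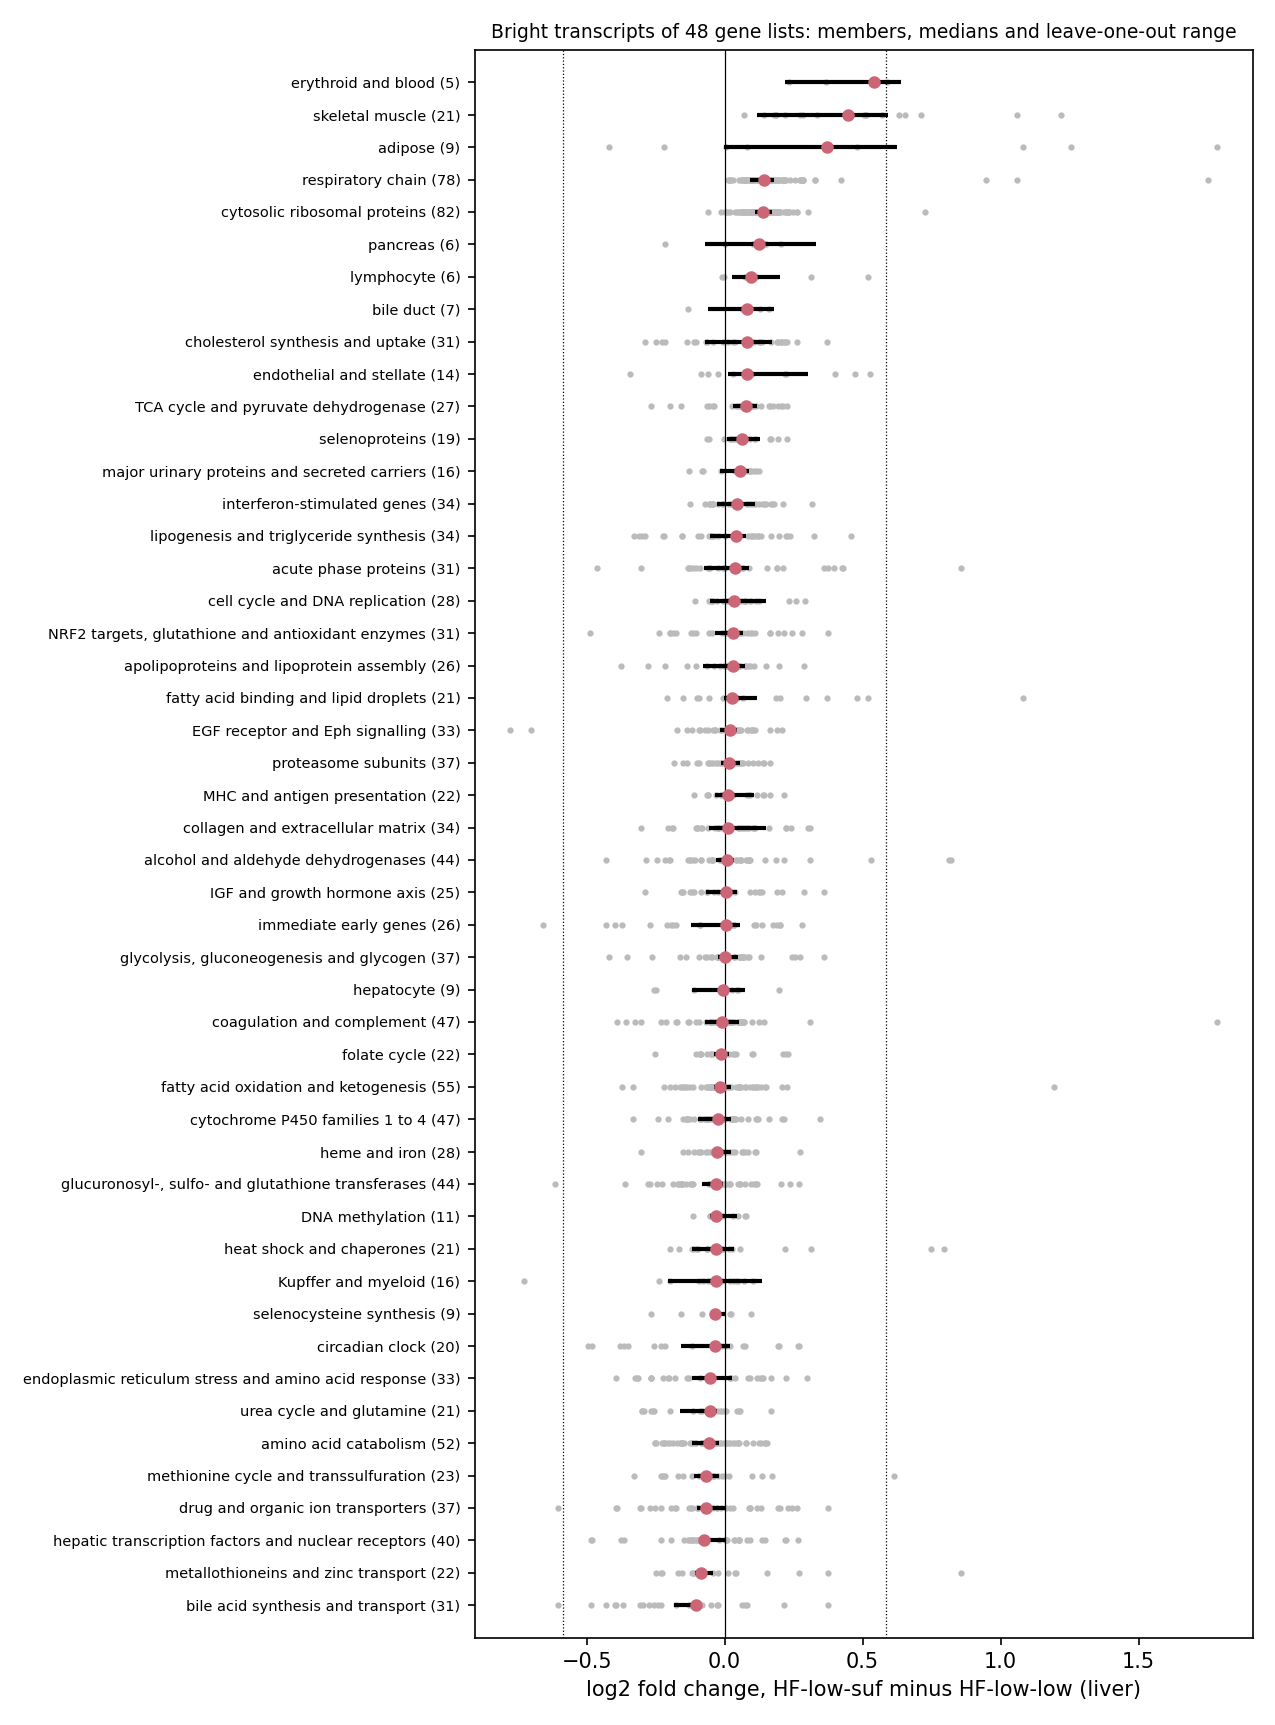
Differences on the log2 scale (x axis, HF-low-suf minus HF-low-low) of the bright members of 48 gene lists (grey points, number of members in brackets), their median (red) and the range of that median when 1 liver is left out (black bar), with dotted lines at 1.5-fold. The medians of erythroid and blood, skeletal muscle and adipose markers lie furthest to the right and that of bile acid synthesis and transport lowest.

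The respiratory chain, which passes electrons from nutrients to oxygen and drives ATP synthesis, leaned higher in HF-low-suf mice. By their brightest probes, all 78 bright genes of the list were higher in HF-low-suf mice. The median difference was 0.14 against 0.01 over all bright probes, and 1 gene, Ndufa11, had an unadjusted P below 0.05. Other bright probes of Ndufab1, Atp5a1 and Atp5b were lower, at -0.07, -0.02 and -0.01. The differences were small in each complex measured, and the list held no gene of complex II. The complex II subunits Sdha and Sdhb are given with the TCA cycle below, where they differed in sign. The median was 0.13 over 37 genes of complex I, 0.17 over 8 of complex III, 0.22 over 16 of complex IV and 0.11 over 16 of the ATP synthase. The groups were formed by gene name and also hold genes that encode no subunit, such as Ndufaf1 in complex I and Cox4nb in complex IV.

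Ndufa11 had ratios from -0.49 through -0.03 to 0.32 in HF-low-low livers and from -0.06 through 0.28 to 1.003 in HF-low-suf livers, and was higher on 6 of 6 slides (0.42 ± 0.19, SE, exact permutation P = 0.0498). The members with the largest differences were the subunits of striated muscle, Cox8b at 1.75 ± 0.86 (SE), Cox6a2 at 1.06 ± 0.71 (SE) and Cox7a1 at 0.95 ± 0.56 (SE). Their ratios in HF-low-suf replicate 2 were 0.52, 0.41 and 0.29, above those of every other liver. The skeletal muscle markers were highest in the same liver. All 21 bright ones were higher in HF-low-suf mice with a median of 0.45, and the median over the markers was 1.73 in HF-low-suf replicate 2 against -0.51 to 0.30 in the other HF-low-suf livers and -0.65 to 0.00 in the HF-low-low livers.

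Without HF-low-suf replicate 2, 72 of the 78 respiratory chain genes were higher, with a median of 0.09, and 20 of the 21 muscle markers were, with a median of 0.12. By liver, the median over the respiratory chain was -0.12, 0.05, 0.01, -0.14, -0.16 and -0.09 in HF-low-low replicates 1 to 6 and 0.09, 0.32, 0.06, 0.06, 0.03 and -0.13 in HF-low-suf replicates 1 to 6, each member being set relative to its mean over the 12 livers. HF-low-suf replicates 5 and 6 lay within the range of the HF-low-low livers, so the diets overlapped. The median was 0.18 on the first scan day and 0.13 on the second, and 82.1% of the genes had the same sign on both, against 51.4% of all bright probes. Other scalings of the arrays gave 73 to 78 higher members and medians of 0.12 to 0.24.

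The neighbouring TCA cycle and pyruvate dehydrogenase list was less uniform, with 20 of 27 bright members higher and a median of 0.08. Beside Idh3g, the differences were 0.16 for Idh3b, 0.08 for Idh3a and 0.21 for the succinate dehydrogenase subunit Sdhb. The cytosolic Idh1 differed by -0.26 and Sdha by -0.16. The list's median was 0.19 on the first scan day and -0.03 on the second. Fatty acid oxidation and ketogenesis, the other route that feeds the chain, had 25 of 55 members higher (21 to 43 over scalings) and a median of -0.02 (-0.03 to 0.07 over scalings), and its extreme was Pdk4, the kinase that shuts off pyruvate dehydrogenase. Pdk4 ran from -2.53 to -1.32 in HF-low-low livers and from -2.57 to 2.26 in HF-low-suf livers. The value of 2.26 was again that of HF-low-suf replicate 2, and the difference of 1.19 ± 0.60 (SE) became 0.58 without it.

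The proteins of the cytosolic ribosome showed the same kind of lean. Of 82 bright genes 80 were higher in HF-low-suf mice, with a median of 0.14 against 0.01 over all bright probes, and none had an unadjusted P below 0.05. By their brightest probes, all 33 genes of the small subunit were higher (median 0.15) and 46 of 48 of the large subunit (median 0.13). Some genes had another bright probe that was lower, such as Rps4x (-0.10), Rps24 (-0.07), Rpl11 (-0.31) and Rpl7 (-0.07). Most genes with several bright probes were higher on each of them. The extremes were Rpl3l, a muscle paralogue of Rpl3, at 0.73 ± 0.51 (SE), and Rpl21 at -0.06 ± 0.65 (SE). By liver, the median was -0.19, 0.09, -0.05, -0.09, -0.19 and 0.04 in HF-low-low replicates 1 to 6 and 0.15, 0.14, -0.05, 0.12, 0.06 and 0.01 in HF-low-suf replicates 1 to 6. HF-low-low replicates 1 and 5 lay lowest, and the diets overlapped.

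Here no single liver carried the median, which stayed between 0.11 and 0.17 when 1 liver was left out, and it was 0.15 on each scan day, with 84.1% of the genes of the same sign on both. Other scalings gave 73 to 82 higher members and medians of 0.10 to 0.23. Ribosomal protein genes have many processed pseudogenes of near-identical sequence, so a probe may also bind their transcripts. The proteasome, another large housekeeping complex, had 22 of 37 members higher with a median of 0.01 (-0.03 to 0.11 over scalings).

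Bile acid synthesis and transport leaned the other way. Of 31 bright genes 26 were lower in HF-low-suf mice and 5 higher, with a median of -0.10 against 0.01 over all bright probes, and none had an unadjusted P below 0.05. Synthesis from cholesterol starts with Cyp7a1, whose ratios ran from 4.06 through 4.74 to 5.41 in HF-low-low livers and from 2.94 through 4.32 to 5.38 in HF-low-suf livers. The difference of -0.37 ± 0.40 (SE, exact permutation P = 0.455) was within the spread between livers, and it was 0.27 on the first scan day and -1.001 on the second. The reductase Akr1d1 differed by -0.43, Cyp39a1 by -0.40, the side chain oxidase Acox2 by -0.27, and Cyp8b1, which sets the share of cholic acid, by -0.10.

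The repressor Nr0b2 (SHP) differed by -0.48 ± 0.35 (SE), with ratios of 0.57 to 2.55 against 0.42 to 2.17, while its activator Nr1h4 (FXR) differed by 0.08. Among the transporters, the uptake carriers Slco1a4 and Slco1a1 differed by -0.60 and -0.31 and Slc10a1 (NTCP) by -0.05. The sterol exporter Abcg8 differed by -0.39 on its brightest probe and by 0.05 on another, the canalicular bile salt pump Abcb11 by -0.08, and the basolateral exporter Abcc4 was the highest at 0.38. Abcb11 was among the tightest, with ratios of 2.37 to 2.75 and 2.22 to 2.73 and a bound of 1.29-fold.

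By liver, the median over the bile acid genes ran from -0.04 to 0.22 in HF-low-low mice and from -0.22 to 0.10 in HF-low-suf mice, overlapping between HF-low-low replicates 2, 3 and 6 and HF-low-suf replicates 3, 5 and 6. Leaving out 1 liver kept the list's median between -0.18 and -0.10, and it was -0.12 and -0.10 on the 2 scan days. With array weights, 13 of 31 were higher with a median of -0.07. Other scalings gave 5 to 9 higher members and medians from -0.19 to -0.02, the last with median centring, which moved the median of all bright probes to 0.09.

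The synthesis of selenoproteins depends on dietary selenium. Of 19 bright genes 16 were higher in HF-low-suf mice, with a median of 0.06, and none had an unadjusted P below 0.05. Sepp1, selenoprotein P, had ratios from 1.15 through 1.41 to 1.62 in HF-low-low livers and from 1.29 through 1.51 to 1.81 in HF-low-suf livers, a difference of 0.11 ± 0.13 (SE) with a bound of 1.30-fold. Gpx1, the cytosolic glutathione peroxidase, had ratios from 0.05 through 0.48 to 0.77 and from 0.13 through 0.52 to 0.86, a difference of 0.03 ± 0.16 (SE) with a bound of 1.29-fold. For both, the livers of the diets lay over one another.

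Of the other selenoproteins, Gpx4 differed by 0.08, the deiodinase Dio1 by 0.02 and Sepw1 by 0.17. The thioredoxin reductase Txnrd1 differed by -0.06 and its mitochondrial relative Txnrd2 by 0.11. The largest difference was that of Selm at 0.23 ± 0.25 (SE), and 18 of the 19 bounds lay below 2-fold, against 96.1% over all bright probes. The exception was Sephs2, the selenophosphate synthetase, whose ratio was -1.76 in HF-low-low replicate 3 and between 0.00 and 1.70 in the other livers. Without HF-low-suf replicate 4, 10 of the 19 were higher with a median of 0.01, and with the Cy3 channel alone 10 of 19 as well. Of 9 bright genes of selenocysteine synthesis 3 were higher, with a median of -0.03 (-0.03 to 0.05 over scalings), all with bounds below 2-fold.

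Among the genes of folate metabolism 10 of 22 were higher in HF-low-suf mice, the median was -0.01 (-0.04 to 0.07 over scalings), and every bound was below 2-fold. Mthfd1 and Shmt1, which interconvert folate-bound one-carbon units, both differed by -0.09. The glycine decarboxylase Gldc was the lowest at -0.25 ± 0.14 (SE), with ratios of 1.75 to 2.02 against 1.17 to 2.05, and Mthfs, which recycles 5-formyltetrahydrofolate, the highest at 0.23 ± 0.14 (SE). In the methionine cycle and transsulfuration 5 of 23 were higher with a median of -0.07, against 0.01 over all bright probes. Median centring of the arrays, which moved all bright probes to 0.09, gave 15 of 23 and 0.03. Bhmt, which remethylates homocysteine with betaine, had ratios from 1.84 through 2.63 to 3.01 in HF-low-low livers and from 1.69 through 2.12 to 2.92 in HF-low-suf livers, a difference of -0.33 ± 0.24 (SE). Cth and Cdo1, which lead sulfur to cysteine and on to taurine and sulfate, both differed by -0.23, and the hepatic S-adenosylmethionine synthetase Mat1a by -0.07.

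Gnmt, the glycine methyltransferase that uses surplus S-adenosylmethionine, had the largest difference of the methionine list, 0.62 ± 0.47 (SE), and a bound of 3.06-fold. Its ratio was -0.90 in HF-low-low replicate 6, between 1.75 and 2.71 in the other HF-low-low livers, and between 1.997 and 2.57 in the HF-low-suf livers. Without that liver the difference was 0.09. Of 11 bright genes of DNA methylation 4 were higher, with a median of -0.03 (-0.04 to 0.06 over scalings) and every bound below 2-fold. The maintenance methyltransferase Dnmt1 differed by 0.08 ± 0.22 (SE) and the de novo enzyme Dnmt3a by 0.03.

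Lipid synthesis showed no common direction, with 19 of 34 genes of lipogenesis higher (median 0.04) and 20 of 31 of cholesterol synthesis and uptake (median 0.08). Acacb, the mitochondrial acetyl-CoA carboxylase, was highest at 0.46 ± 0.28 (SE), with ratios of 0.03 to 1.32 against 0.39 to 2.09. The fatty acid elongase Elovl2 was lowest at -0.33 ± 0.18 (SE), lower on 6 of 6 slides. Fasn, the fatty acid synthase, differed by 0.22 ± 0.37 (SE) and ranged from 0.73 to 3.22 within the HF-low-low livers, and the desaturase Scd1 differed by -0.22 ± 0.18 (SE). Among the sterol genes Lpl, lipoprotein lipase, was highest at 0.37 and 0.23 on its 2 probes, and the first value became -0.0028 when HF-low-suf replicate 1 was left out and 0.71 when HF-low-low replicate 2 was. The median over the cholesterol genes was 0.73 in HF-low-suf replicate 4 and between -0.40 and 0.20 in the other livers. Without HF-low-suf replicate 4, 10 of the 31 genes of cholesterol synthesis and uptake were higher and the list's median was -0.07, and without HF-low-low replicate 3 it was -0.01.

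In nitrogen metabolism the median differences were small. In amino acid catabolism 17 of 52 were higher in HF-low-suf livers with a median of -0.06 against 0.01 over all bright probes, and with median centring 30 of 52 with 0.03 against 0.09. In the urea cycle and glutamine list 6 of 21 were higher with a median of -0.05, and with median centring 12 of 21 with 0.03. Without HF-low-low replicate 3 the median was -0.12 in amino acid catabolism and -0.16 in the urea cycle and glutamine list. Cps1, the entry enzyme of the urea cycle, differed by -0.26 ± 0.19 (SE), with ratios of 1.65 to 2.82 against 1.83 to 2.39, and Otc, the ornithine transcarbamylase, by -0.02. In HF-low-low replicate 3 the urea cycle list stood at -0.42, the lowest of the 12 livers.

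Drug metabolism had no common direction either, with 19 of 47 bright cytochromes P450 of families 1 to 4 higher (median -0.03, -0.09 to 0.05 over scalings) and 16 of 44 glucuronosyl-, sulfo- and glutathione transferases (median -0.03, -0.06 to 0.05). Members of these families resemble one another, and a probe may bind more than 1 of them. Of 22 genes of metallothioneins and zinc transport 7 were higher with a median of -0.09, but Mt1, the main hepatic metallothionein, differed by 0.86 ± 0.41 (SE). Its ratios were 1.48 and 1.59 in HF-low-suf replicates 1 and 2, -0.55 to 0.56 in the other HF-low-suf livers and -1.15 to 0.39 in the HF-low-low livers, and the exact permutation P was 0.115. Mt2 differed by 0.37 ± 0.45 (SE).

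Further cell type markers varied between livers. Of 9 bright adipose markers 7 were higher in HF-low-suf mice with a median of 0.37, and by liver their median was 1.31 in HF-low-suf replicate 1, -0.52 to 0.53 in the other HF-low-suf livers and -0.45 to 0.10 in the HF-low-low livers. Without HF-low-suf replicates 1 and 2 it was -0.20. Slc2a4, which muscle and fat share, had ratios of -1.25 and -0.16 in those livers, -3.18 to -2.01 in the other HF-low-suf livers and -4.37 to -2.09 in the HF-low-low livers. The 5 erythroid and blood genes were all higher with a median of 0.54, which lay between 0.22 and 0.64 when 1 liver was left out. Of 16 Kupffer and myeloid markers 6 were higher with a median of -0.03 (-0.04 to 0.04 over scalings). Without HF-low-low replicate 1 these values became 0 of 16 and -0.20, and without HF-low-low replicate 2 they became 12 of 16 and 0.13. By liver, the median ran from -1.11 to 1.16 in the HF-low-low livers and from -0.45 to 0.57 in the HF-low-suf livers. What part these tissues and cells have in the differences of the other lists was not tested.

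**Figure D4:**
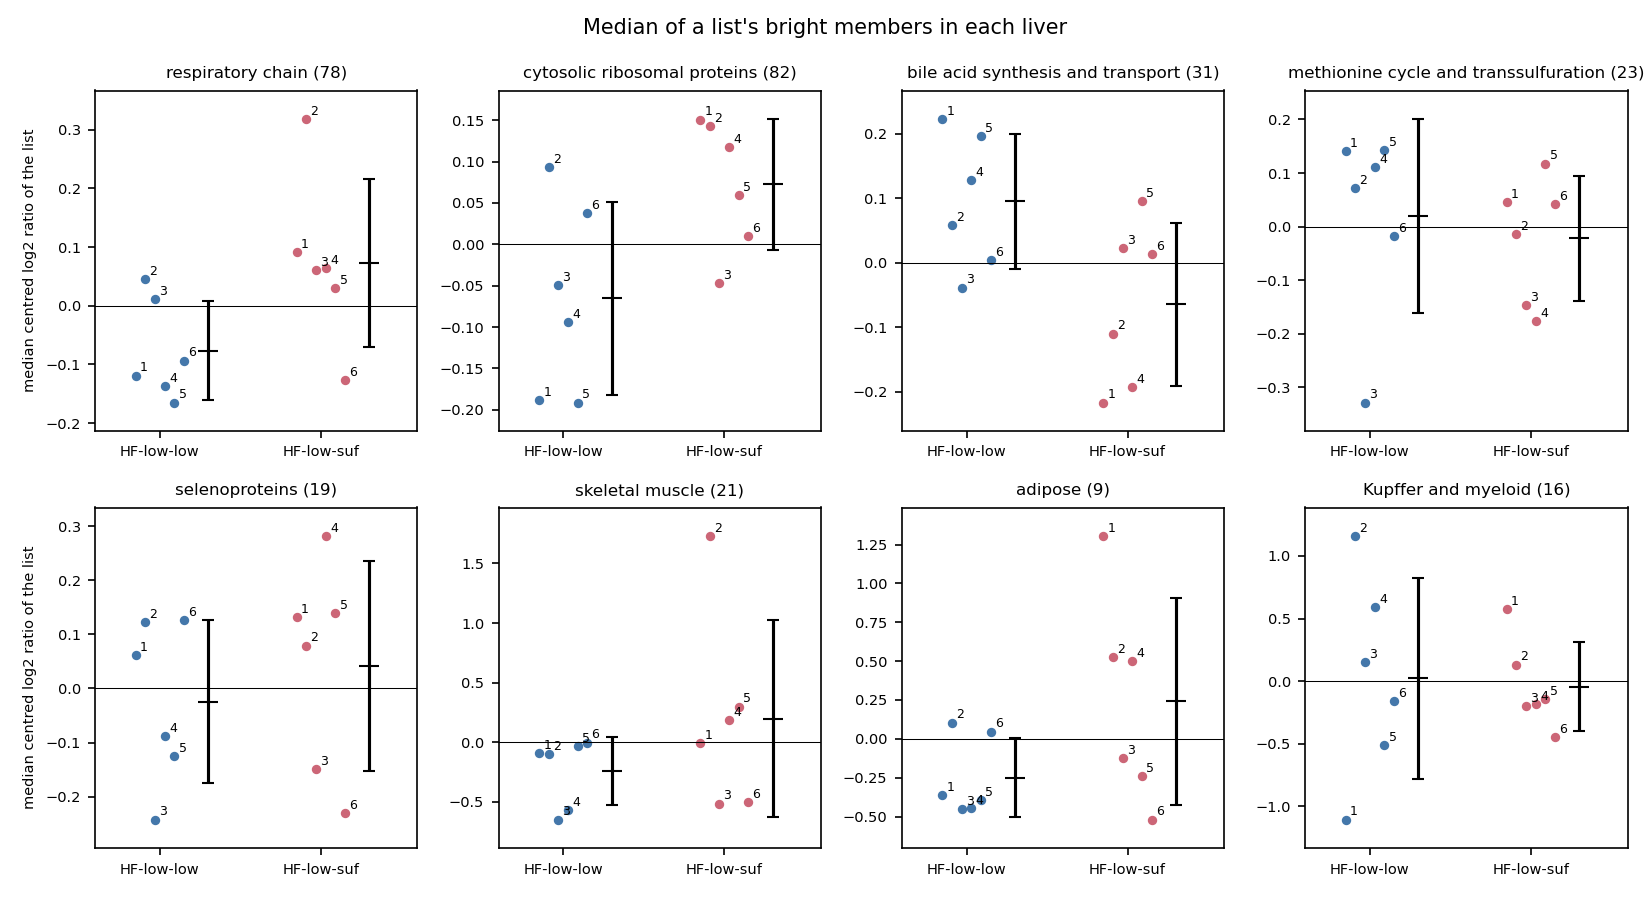
Median over the bright members of 8 gene lists in each liver (y axis, log2 ratio of each member relative to its mean over the 12 livers), 1 point per liver with its replicate number, beside the mean and SD of the 6 livers of each diet. The diets overlap in all 8 lists, HF-low-suf replicate 2 stands at 1.73 for skeletal muscle and HF-low-suf replicate 1 at 1.31 for adipose markers. The mean of the methionine list is lower in HF-low-suf livers with the scaling shown, and with median centring the list's median difference is 0.03 against 0.09 over all bright probes.

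The number of small P values depended on which livers were included. When 1 liver at a time was left out, between 16 and 202 bright probes had an unadjusted P below 0.05 instead of 52. The count was lowest without HF-low-suf replicate 2, and highest without HF-low-low replicate 3 (202), HF-low-suf replicate 6 (194) and HF-low-low replicate 6 (174). Between 0 and 8 bright probes were called, with 8 without HF-low-low replicate 6, 6 without HF-low-suf replicate 6, 5 without HF-low-low replicate 2 and none without HF-low-low replicate 1 or HF-low-suf replicate 2. HF-low-low replicate 3 deviated most from its diet's mean, by 0.50 (root mean square over bright probes, log2 scale), and HF-low-low replicate 4 least, by 0.27. Over all bright probes the differences of the 2 scan days had the same sign in 51.4%.

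**Figure D5:**
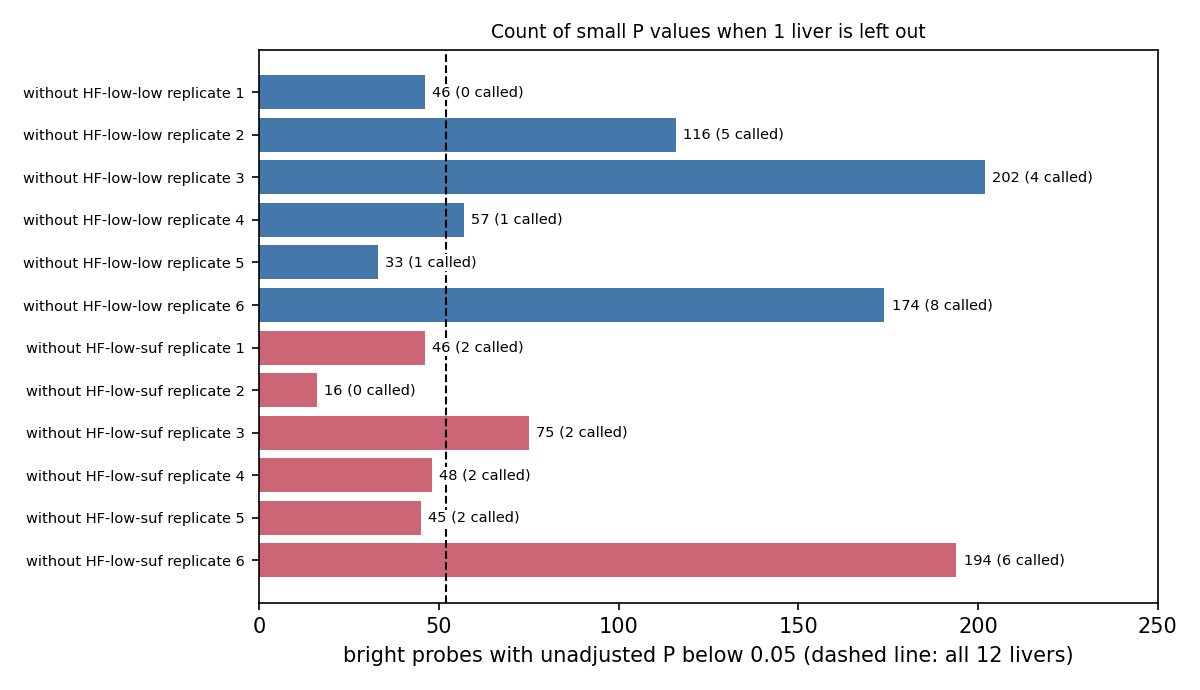
Number of bright probes with an unadjusted P below 0.05 (x axis, limma) when the liver named on the y axis is left out, with the number called in brackets. The dashed line marks the 52 probes found with all 12 livers, and the counts run from 16 without HF-low-suf replicate 2 to 202 without HF-low-low replicate 3.

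Single livers also set the direction of single genes. Akr1b7, an aldose reductase, had a ratio of 4.50 in HF-low-suf replicate 1 and -1.20 to 0.49 in the other 11 livers, and its difference of 0.82 ± 0.75 (SE) became -0.03 without that liver. Sult1e1, the estrogen sulfotransferase, ranged from -0.83 to 5.30 within the HF-low-suf livers, and its difference of -0.62 ± 1.06 (SE) ran from -1.15 to 0.07 as 1 liver was left out. Klf2, a transcription factor, had a ratio of -6.12 in HF-low-low replicate 3, -3.51 in HF-low-suf replicate 3 and -2.60 in HF-low-suf replicate 2, against 0.00 to 1.32 in the other 9 livers, and its difference of 0.20 ± 1.11 (SE) ran from -0.85 to 0.77.

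Different probes of a gene mostly lay within 0.5 of each other on the log2 scale, a gap wider than the median difference of nearly every list. Their signs agreed less well. Of 391 list genes with several bright probes, the sign differed between probes in 99, and the differences lay more than 0.5 apart in 5, among them Agxt2l1, Cyp3a44, Ugt1a6b and Hspa1a. At the edge of the bright set, 860 probes were well above background on exactly 6 arrays and 840 on exactly 5, with a median SD within a diet of 0.37 and 0.38. On the log2 scale the 9763 probes bright on all 12 arrays had a median SD of 0.26. Of the bright probes, 43 entered with 2 or fewer HF-low-low arrays and 115 with 2 or fewer HF-low-suf arrays, some of them among the 860. Saturated on at least 1 liver array were 26, among them Gnmt.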

How the data were processed

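RNA of 12 livers, 6 per diet, was measured on two-colour arrays, grouped by tissue and diet as labelled. The authors deposited, for every spot, the raw mean intensity in Cy3 and Cy5 and the median intensity of its local background, read by the Feature Extraction software with no normalization. The software's processed signals were background-subtracted and dye-normalized. No use was made of the deposited log10 ratio of red to green, which comes from those signals. The background correction behind the study's own values and its limma version are not given in the sources used here.

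In limma 3.58.1 (R 4.3.3), signals were corrected with normexp (offset 50), outlier spots and 1639 control spots of 45018 were left out, arrays were loess-normalized one by one, and spots repeating a probe were averaged. Bright probes were marked well above background in Cy3, averaged over repeated spots (at least 0.5), on at least 6 liver arrays. lmFit and eBayes were run on all 41174 probes with the study's threshold (unadjusted P below 0.01, fold change above 1.5), as its methods state. Exact permutation tests were two-sided over all assignments of the 12 livers. Gene names and positions (mm7) are those of the array files. The brightest probe stood for a gene in the lists.

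The members and the lists were chosen with earlier results of these data known. Named were the called probes, the largest rise and fall of each list, an anchor set of liver genes, and the 6 list genes that moved most when a liver was left out. Others named were chosen after their values were seen, and some genes that the rule names are not reported here. Alternatives were plain background subtraction, no correction, processed signals, median centring, Aquantile, Cy3 alone, outliers kept, limma on bright probes alone, stricter brightness filters, unsaturated probes, all 24 arrays, slide or scan day as a block, array weights, all probes of a gene, and leaving out livers. The fit was tested on simulated data of 41174 probes. In the liver comparison, 92% of 100 bright probes changed by a log2 difference of 1 were called (72% passed adjustment), and 100% of 100 changed by 2 (97%). There, 58 unchanged bright probes were called, against 2 bright probes in the real data. The simulated noise was independent between probes, whereas the deviations of real livers correlated at up to 0.78 across bright probes. These shares therefore cannot be carried over to the real livers.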

Additional observations from a re-analysis of the deposited data

Results flagged for a closer look

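A sample whose gap to its nearest neighbour was large against the range of its group was found in 6 of 108 groups of 6 livers tested, where chance alone marks about 1 in 20. The median over the skeletal muscle markers was 1.73 in HF-low-suf replicate 2, against -0.51 to 0.30 in the other HF-low-suf livers. HF-low-low replicate 3 stood apart in this way for 3 lists. Its median was -0.33 over the methionine cycle and transsulfuration, against -0.02 to 0.14 in the other HF-low-low livers, -0.27 over the cytochromes P450 of families 1 to 4, against 0.00 to 0.12, and -0.15 over the alcohol and aldehyde dehydrogenases, against 0.02 to 0.06. HF-low-suf replicate 4 had a Cy5 signal of 12.7 times the background, against 5.43 to 7.62, and 8.75% of its spots were marked as outliers, against 0.41% to 0.75%. The cause was not tested for any of these.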

How the results depend on the processing

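The counts of bright probes called, with an unadjusted P below 0.01 and with one below 0.05 were 2, 2 and 52. With plain background subtraction 4 had a P below 0.01. With no background correction the latter counts were 6 and 116, and with all 24 arrays in one fit 4 and 106. With the Feature Extraction processed signals the counts were 4, 4 and 114, with median centring 1, 1 and 28, and with the Cy3 channel alone 4, 13 and 165. With scan day as a block they were 1, 1 and 83, with array weights 72, 127 and 1348, and without HF-low-suf livers 1 and 2 together 1, 1 and 21. Among probes well above background on all 12 liver arrays, 32 had a P below 0.05. The weights of single arrays ran from 0.27 to 8.39, the highest for HF-low-suf replicate 5. The next highest, 3.22, was that of HF-low-suf replicate 4, the array with the most outlier spots. Leaving out 1 liver gave 0 to 8 called, 0 to 11 with a P below 0.01 and 16 to 202 with one below 0.05. The share of bright probes with an interval within 1.5-fold, 72.3%, became 29.5% with median centring.

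Same-numbered livers share a slide, but the correlation of their deviations from the diet means was 0.23, -0.09, 0.69, -0.23, -0.01 and -0.46 for replicates 1 to 6, so the numbers were not taken to pair them. With the replicate number as a block 1, 1 and 97 bright probes passed, and Errfi1 was not called at -0.78.

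Errfi1 was also not called with median centring (-0.73), nor without HF-low-suf livers 1 and 2 together (-0.63), and leaving out 1 liver gave -0.89 to -0.63. Epha2 was not called with the processed signals (-0.74), median centring (-0.60), all 24 arrays (-0.70), scan day as a block (-0.70) or array weights (-0.54), and leaving out 1 liver gave -0.82 to -0.58. A value that was not called was taken as reversed only where it changed sign and moved by more than its standard error. Without HF-low-suf livers 1 and 2 together this held for S100a9 (-0.055), Lpl (-0.28), Akr1b7 (-0.12), Ifi27 (-0.11), Slc10a1 (0.20), Cyp2e1 (0.19), Mt2 (-0.24) and Igfbp1 (-0.72), and without HF-low-suf replicate 1 alone for Akr1b7 (-0.026, with -0.026 to 1.11 over the livers left out). With array weights it held for Car5a (-0.13), Slc10a1 (0.20), Cyp4a10 (0.17), Fabp1 (0.27), Cyp2e1 (0.26), Saa1 (-0.064), Egfr (0.26) and Igfbp1 (-0.91), and with the Cy3 channel alone for Gnmt (-0.029). Newly called were Clec4g with the Cy3 channel alone (0.66), Ms4a1 with the processed signals (0.94), array weights (0.63) and without HF-low-suf replicate 6 (0.67), and with array weights Akr1d1 (-1.24), Steap4 (-0.79) and Cyp7a1 (-1.28). The cause of these changes was not tested. Aquantile scaling leaves log ratios as they are and gave no separate value. Probes well above background on exactly 6 arrays had a median SD within a diet of 0.37, against 0.26 for those on all 12.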

Other observations

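Several bright transcripts varied far more between livers of one diet than between the diets, and those named here were chosen after their values were seen. Dbp, a transcription factor whose mRNA cycles with the time of day, had log2 ratios of 2.40, 2.28 and 1.62 in HF-low-low replicates 1, 2 and 4 and of 2.58 in HF-low-suf replicate 4, and between -1.21 and 0.84 in the other 8 livers. Per1, another clock gene, was highest in HF-low-low replicates 1, 2 and 4, at 1.77, 1.74 and 1.09, with 0.59 in HF-low-suf replicate 4 and -0.37 to 0.38 in the others. Pck1, the fasting-induced enzyme of gluconeogenesis, was at 1.57, 1.96 and 1.12 in the same HF-low-low livers, at 1.37 in HF-low-suf replicate 4 and 1.12 in HF-low-suf replicate 1, and at -1.90 to -0.05 in the others. The order in which livers were collected was not analysed here.

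Rpl21, a protein of the large ribosomal subunit, was at -2.57 in HF-low-low replicate 3, -1.83 in HF-low-suf replicate 3 and -1.21 in HF-low-suf replicate 2, and at 0.32 or above in the other 9 livers. Klf2 was lowest in the same 3 livers, at -6.12, -3.51 and -2.60. Sephs2 was lowest in HF-low-low replicate 3 (-1.76), HF-low-suf replicate 3 (0.00) and HF-low-suf replicate 2 (0.53), and was at 0.61 to 1.70 elsewhere. HF-low-low and HF-low-suf replicates 3 share a slide, and their deviations from the diet means correlated at 0.69 across bright probes, which are not independent replicates. Pairs on different slides reached 0.78 and 0.70, and other pairs on the same slide ran from -0.46 to 0.23.

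Marco, a scavenger receptor of macrophages, had ratios of 1.12 and 1.69 in HF-low-low replicates 1 and 5 and 2.93 to 4.95 in the other HF-low-low livers, against 1.92 to 3.62 in the HF-low-suf livers, a difference of -0.73 ± 0.61 (SE). Sult2a2, a hydroxysteroid sulfotransferase, was at 1.45 in HF-low-low replicate 2, 2.53 in HF-low-suf replicate 1 and 4.95 to 7.25 in the other 10 livers.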
